A study of Homo sapiens with 44 samples.

Results

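The human mitochondrial genome encodes 37 genes, and all 37 genes that GENCODE release 29 places on chrM of GRCh38 were followed here. They are 37 of the 60499 genes in the deposited gene table and were chosen by their place on that chromosome and by symbols that start with MT-, not by any measured value. They comprise 13 genes for subunits of the respiratory chain, 2 ribosomal RNA genes and 22 transfer RNA genes. RNA came from an established cell line, the human embryonic stem cells H1, differentiated towards the cardiovascular lineage in culture wells. The 44 libraries, each from 1 well, fall into 12 groups. Pluripotent cells on laminin LN-521 form 1 group with 3 wells, and all the other wells carried LN-521 with LN-221. Day 0 wells (3) were in Nutristem medium. Wells of days 1 and 3 (3 each) had received CHIR99021, an inhibitor of the kinase GSK3, and day 5 wells (5) had received IWP2, an inhibitor of Wnt production, which was added at day 3. From day 1 to day 9 the RPMI medium carried a B27 supplement without insulin, with 5 wells each at days 7 and 9. At day 11 (5 wells) and at days 14, 20, 30 and 90 (3 wells each) it carried the complete supplement, of CTS grade. All cells are of 1 line without a second genotype. Replicates are wells of that line, so p-values measure the spread between wells.

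Human mitochondrial DNA is transcribed from both strands as long precursors that are cut into shorter RNAs, largely at the transfer RNAs that lie between the other genes. MT-ATP8 and MT-ATP6 can be read from the same messenger RNA, as can MT-ND4L and MT-ND4, so values here are per gene. All messenger RNAs but MT-ND6 are encoded in the plus direction of the annotation, and MT-ND6 lies on the minus strand. The protein products are subunits of complexes I, III, IV and V, which also need subunits encoded in the nucleus. Heart muscle is rich in mitochondria and lives on oxidative phosphorylation. The places in this genome where the coding regions of neighbours overlap are shown first. Capitals mark the bases that belong to both genes, with 9 flanking bases on each side.

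MT-ATP8/MT-ATP6, chrM:8518-8581, plus strand: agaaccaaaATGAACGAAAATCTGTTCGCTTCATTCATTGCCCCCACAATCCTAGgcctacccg

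MT-ND4L/MT-ND4, chrM:10751-10775, plus strand: cctactccaATGCTAAaactaatcg

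MT-ATP6/MT-CO3, chrM:9198-9216, plus strand: caacacataAtgacccacc

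MT-ATP8 and MT-ATP6 share 46 bases, MT-ND4L and MT-ND4 share 7, and MT-ATP6 and MT-CO3 share 1. The first 60 bases of MT-ND6 and MT-CO1 are shown because they lie on opposite strands, which differ in base composition. Capitals mark the first codon, ATG.

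MT-ND6, chrM:14614-14673, minus strand: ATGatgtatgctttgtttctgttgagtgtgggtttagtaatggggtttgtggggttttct

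MT-CO1, chrM:5904-5963, plus strand: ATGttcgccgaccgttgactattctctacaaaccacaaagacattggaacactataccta

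Over its whole length, MT-ND6 (chrM:14149-14673) is 35.6% G and 7.0% C, while MT-CO1 (chrM:5904-7445) is 16.2% G and 30.0% C. All sequences are from the GENCODE transcripts of GRCh38. Whether counting used the strand of the reads is not given in the sources used here. If it did not, reads of MT-ND6 and of RNA from the opposite strand cannot be told apart.

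Of the 37 genes, 15 passed the filter on low counts, namely the 13 messenger RNA genes and MT-RNR1 and MT-RNR2, which encode the ribosomal RNAs of the small and large mitochondrial ribosomal subunit. The 22 transfer RNA genes did not. Together they held 132 counts in all 44 libraries, and no transfer RNA gene had more than 5 in 1 library. The 22 genes are 59 to 75 bases long, shorter than the 150 bp reads. Of them 8 had 0 counts in every library, and the highest sum was 30 counts for MT-TV, which lies between MT-RNR1 and MT-RNR2. The sum over transfer RNA genes ranged from 0 to 13 counts per library with a median of 2. Transfer RNA levels could therefore not be measured in these libraries and are not compared.

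Total estimated counts per library ranged from 6937136 to 33498022, and RNA integrity number (RIN, an RNA quality score from 1 to 10) ranged from 7.4 to 10.0. Of the 44 libraries, 4 held under 15000000 counts, namely day 14 replicates 2 and 6, day 20 replicate 2 and day 30 replicate 10. They also had a RIN of 7.4 to 8.2 and stand apart from the rest in several results below, which are given with and without them. Pluripotency markers were highest in pluripotent cells, with a sum over 5 genes between 7322 and 7367 CPM (counts scaled to 1000000 per library), and were lowest at day 90 (12.95 to 24.9 CPM). Cardiomyocyte markers, 6 of 6 with counts in every group, summed to 32.2 to 77.1 CPM in pluripotent wells and to 16747 to 53386 CPM at day 90. In bulk RNA, a change in the number of cells of a type and a change of RNA per cell cannot be told apart.

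Per length, complex IV messenger RNAs were the bulk of the mitochondrial messenger RNA. MT-CO1, MT-CO2 and MT-CO3 encode the catalytic core of cytochrome c oxidase. Their median levels over 44 libraries were 757, 382 and 905 TPM (a transcript level per length). MT-ND3, a complex I subunit, had a median of 156 TPM and was next. The other 9 messenger RNA genes had medians between 17.4 TPM (MT-ND5) and 51.3 TPM (MT-ND4L). MT-CO1, MT-CO2 and MT-CO3 together made up 78.4 ± 6.58% (SD, n = 44) of the TPM of the 13 genes. The ranges over libraries overlapped between all 13 genes. The TPM of MT-ATP8 divided by that of MT-ATP6 had a median of 0.927 (0.412 to 1.91 over 44 libraries), and MT-ND4L over MT-ND4 had a median of 1.28 (0.766 to 1.90). The third overlapping pair was far apart, since MT-ATP6 had a median of 48.8 TPM and MT-CO3 of 905 TPM. Among pairs without overlap, MT-ND1 over MT-ND2 had a median of 1.14 (0.797 to 1.73), MT-CO3 over MT-CO1 of 0.993 (0.655 to 2.58) and MT-ND3 over MT-ND4 of 3.68 (1.47 to 9.74). By TPM, close levels were thus found in pairs with and without overlap. MT-ATP8 (207 bases), MT-ND4L (297 bases) and MT-ND3 (346 bases) are the shortest of the 13 genes, beside paired reads of 150 bp. Their TPM therefore depends on how length was accounted for, which was not examined. Median counts were 102.5 for MT-ATP8 and 1151 for MT-ATP6 (681 bases). They were 294.5 for MT-ND4L and 2276 for MT-ND4 (1378 bases). Among the complex IV genes the shares differed between groups. MT-CO3 was 43.8 ± 3.08% of mitochondrial messenger RNA TPM in pluripotent cells and 25.6 ± 6.99% at day 14 (SD, n = 3 each), while MT-CO1 was 21.3 ± 3.54% and 27.7 ± 5.25%. These shares were not tested, and 2 of the 3 day 14 libraries are among the 4 with low counts.

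**Figure D1:**
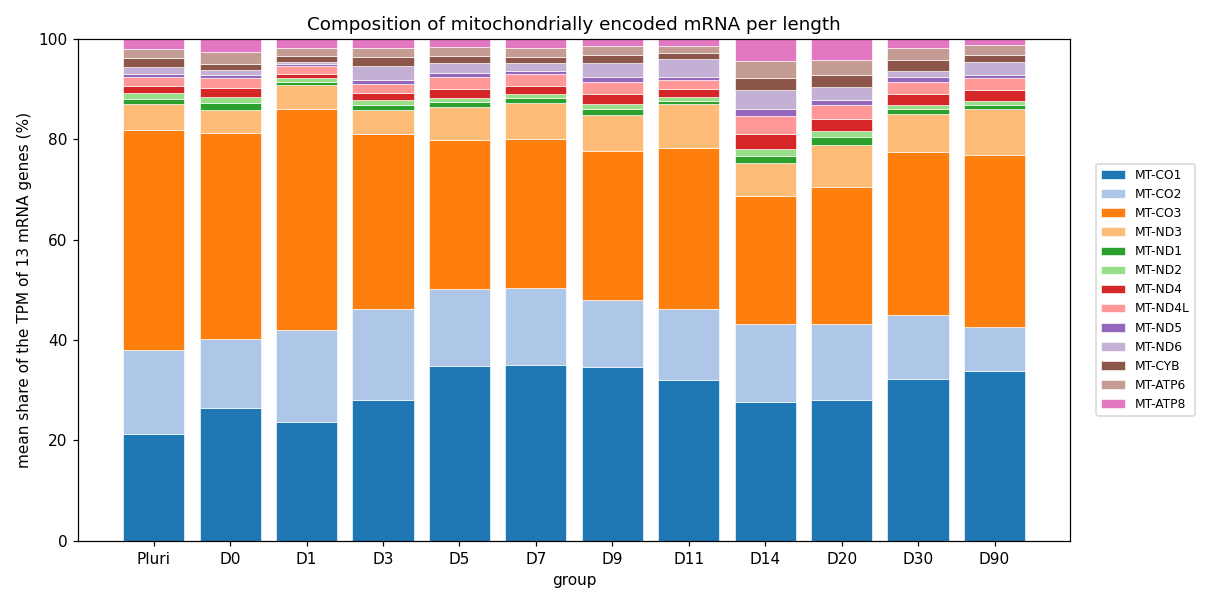
Stacked bars give the mean share of each of the 13 messenger RNA genes in their summed TPM (y, percent) in each group (x). MT-CO1, MT-CO2 and MT-CO3 fill most of every bar, from 68.7% at day 14 to 86.05% at day 1.

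Nuclear copies of mitochondrial genes share reads with some members. A copy of MT-ATP6 on chromosome 1 (MTATP6P1, chr1:633696-634376, GRCh38) matches it at 98.53% of 681 aligned bases, with 10 mismatches. Its counts were 7.30% to 15.8% of those of MT-ATP6, so the MT-ATP6 values are uncertain. The copies of MT-CO1 (MTCO1P12), MT-ND2, MT-CO2 and MT-CO3 in the same stretch held at most 2.27% of the counts of their members.

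Day 0 wells on LN-521 with LN-221 were compared with pluripotent wells on LN-521. No gene of the 15 changed in edgeR's quasi-likelihood test over 22955 genes, where 5.88% of all genes were called (adjusted p under 0.05), 3.45% higher and 2.43% lower. At an unadjusted p under 0.05 the count was also 0 of 15, and DESeq2 called 0. The median log2 change was -0.15 over the 15 genes, with 14 below 0. The lowest was that of MT-ND6, at 34.6, 33.9 and 8.86 CPM in pluripotent wells and 11.6, 14.9 and 8.6 CPM at day 0. This is a log2 change -1.14 ± 1.38 (SE, adjusted p = 0.705). The third pluripotent well, which has a RIN of 10.0, lies within the day 0 range, and the other two lie above it. MT-ND1, with the highest estimate among messenger RNAs, was at 48.4, 54.5 and 22.6 CPM and 43.8, 39.96 and 41.1 CPM. The groups overlap, with a log2 change -0.01 ± 0.71 (SE, adjusted p = 1). A fit of these 2 groups alone called 4 lower (MT-ND6, MT-CYB, MT-ND5 and MT-ND3) but called 8655 of 17557 genes.

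Day 3 wells, which had received CHIR99021, were compared with day 0, and 0 of 15 changed, where 25.2% of all genes did, 13.2% higher and 12% lower. The count at an unadjusted p under 0.05 was 0 and DESeq2 called 0. MT-ND6 had the highest estimate, with 55.2, 19.3 and 59.4 CPM at day 3 against 11.6, 14.9 and 8.6 CPM, a log2 change 1.93 ± 1.40 (SE, adjusted p = 0.341). All 3 day 3 wells lie above all 3 day 0 wells, with day 3 RIN values of 9.7, 10.0 and 9.6 against 10.0 in each day 0 well. MT-ATP8, a complex V subunit, had the lowest, with 3.85, 2.98 and 3.66 CPM against 3.73, 4.69 and 3.42 CPM, a log2 change -0.17 ± 0.91 (SE, adjusted p = 0.925). A fit of these 2 groups alone called 8 higher, among them MT-ND6, MT-CYB and MT-RNR2, and called 10930 of 17912 genes.

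Between day 3 and day 9 the cells had IWP2 and then medium without either inhibitor. MT-RNR1 rose, the only 1 of 15 genes called in edgeR's quasi-likelihood test, where 35.9% of all genes were called, 17.3% higher and 18.6% lower. It was at 40.8, 42.6 and 62.2 CPM at day 3 and 159, 68.7, 71.9, 134 and 55.4 CPM at day 9. The groups overlap, since day 9 replicate 4 lies below the highest day 3 well. The log2 change 1.01 ± 0.39 (SE, adjusted p = 0.0375) was also called by DESeq2, but not with the replicate number as a block (0 of 15 called) or by limma on log2 TPM (0 called). The count was also 0 without day 3 replicate 1 or 2 or day 9 replicate 1 or 3, so the call rests on single wells. MT-RNR2 was at 196, 216 and 251 CPM and 1004, 362, 359, 494 and 277 CPM, with no overlap of the groups and a log2 change 1.18 ± 0.60 (SE, adjusted p = 0.124). Among messenger RNAs MT-ND3 had the highest estimate (35.1, 31.7 and 41.3 CPM at day 3 and 91.9, 46.4, 35.2, 48.9 and 44.1 CPM at day 9). Its log2 change 0.56 ± 0.45 (SE, adjusted p = 0.361) did not pass. MT-CO2 had the lowest, with 453, 442 and 368 CPM and 558, 234, 154, 318 and 274 CPM and a log2 change -0.45 ± 0.52 (SE, adjusted p = 0.539). The ratio of ribosomal to messenger RNA counts, on a log2 scale, was -3.74 ± 0.37 at day 3 (SD, n = 3) and -2.66 ± 0.44 at day 9 (SD, n = 5). These groups do not overlap, with an exact permutation p = 0.0357, the smallest that 5 against 3 wells allow, and an adjusted p = 0.179 over 15 tests.

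Between day 9 and day 30 the medium was changed from the supplement without insulin to the complete supplement of CTS grade. Of the 15 genes 14 rose, all except MT-ND6, where 31.9% of all genes were called, 16.6% higher and 15.3% lower. The median log2 change was 2.25 over the 15 genes and 0.07 over all 22955 genes. The ribosomal RNA MT-RNR2 was at 2454, 6889 and 1659.7 CPM at day 30 against 1004, 362, 359, 494 and 277 CPM, and the groups do not overlap. It had the highest estimate of the 15, a log2 change 2.88 ± 0.57 (SE, adjusted p = 0.000138). MT-RNR1 was at 486, 798 and 337 CPM against 159, 68.7, 71.9, 134 and 55.4 CPM, also without overlap, a log2 change 2.46 ± 0.37 (SE, adjusted p = 1.89e-06).

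The messenger RNAs rose at all 4 complexes, and DESeq2 also called 14 genes. Of the 7 complex I genes 6 rose, with log2 changes of 2.06 for MT-ND1, 2.25 for MT-ND3, 2.32 for MT-ND4, 1.92 for MT-ND4L and 2.12 for MT-ND5 beside MT-ND2. In complex IV, MT-CO2 rose by 2.14 and MT-CO3 by 2.46 on the log2 scale, and in complex V MT-ATP8 rose by 2.55. MT-CYB, the cytochrome b of complex III, had the highest estimate, with 306, 559.7 and 193 CPM against 76.4, 29.3, 41.9, 121 and 30.3 CPM, a log2 change 2.56 ± 0.60 (SE, adjusted p = 0.00101). Its day 30 wells all lie above its day 9 wells. MT-ND2, of complex I, had the lowest estimate among those called, with 87.5, 221 and 76.5 CPM against 43.1, 19.9, 26.3, 82.8 and 22.3 CPM, a log2 change 1.72 ± 0.58 (SE, adjusted p = 0.0209). The groups overlap, since day 9 replicate 3 reached 82.8 CPM. MT-CO1 was at 5772, 18076 and 3192 CPM against 3206, 1801, 1239.9, 2106 and 1839.8 CPM, a log2 change 2.14 ± 0.44 (SE, adjusted p = 0.000214), and day 30 replicate 3 lies just below the highest day 9 well. MT-ATP6, with its nuclear copy, had a log2 change 2.55 ± 0.60 (SE, adjusted p = 0.00115). MT-ND6 was at 13.9, 433 and 9.86 CPM against 12.97, 6.07, 39.4, 145 and 4.78 CPM, with a log2 change 1.87 ± 1.18 (SE, adjusted p = 0.227). Of its day 30 wells, only replicate 10 lies above the day 9 wells.

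Day 30 replicate 10 has a RIN of 7.4 and 11715812 counts, against 9.5 and 10.0 in the other wells. Without it 9 of the 15 genes rose, where 3594 of all 23871 genes did, and the median log2 change was 1.39. The estimate for MT-ND6 was -1.81, which did not pass (adjusted p = 0.367, edgeR's quasi-likelihood test). Without day 9 replicate 3, which had the highest MT-ND6 of its group, all 15 were called, where 6876 of all 22944 genes were. With RIN as a term in the fit 12 rose, all but MT-ND1, MT-ND6 and MT-ATP8, where 3864 of all 22955 genes rose. Without the 4 libraries under 15000000 counts 12 rose, all but MT-ND1, MT-ND2 and MT-ND6, where 4123 of all 23542 genes rose. The 13 messenger RNA genes held 0.535%, 0.947% and 3.72% of counts in the day 30 wells and 0.198% to 0.501% at day 9. These groups do not overlap (exact permutation p = 0.0357, the smallest possible, adjusted p = 0.179). The difference of means was 1.38 percentage points, and 0.389 without day 30 replicate 10. No 95% Wilson bound of such a share lay further than 0.0137 percentage points from it, which covers counting error only. Beside this, cardiomyocyte markers (6 of 6 with counts) summed to 6620 to 15299 CPM at day 9 and 14949 to 23486 CPM at day 30. Endoderm and hepatocyte markers (6 of 6) summed to 473 to 6110 CPM and 20.2 to 289 CPM. Endothelial markers (3 of 3) summed to 239 to 424 CPM and 19.4 to 106 CPM, and smooth muscle and fibroblast markers (4 of 4) to 2428 to 4771 CPM and 3014 to 7128 CPM. No marker was at 0 in these groups, and their part in the result was not tested.

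Between day 30 and day 90 no gene of the 15 changed, where 8.52% of all genes were called, 4.03% higher and 4.49% lower. The count at an unadjusted p under 0.05 was 0 and DESeq2 called 0. MT-ND3 had the highest estimate, with 184, 418 and 303 CPM at day 90 against 144, 499 and 118 CPM, a log2 change 0.25 ± 0.49 (SE, adjusted p = 0.808). MT-ATP8 had the lowest, with 6.28, 14.2 and 8.12 CPM against 11.1, 31.6 and 5.28 CPM, a log2 change -0.74 ± 0.89 (SE, adjusted p = 0.664). Without the 4 libraries of low count the median over the 15 genes turned from -0.19 to 0.63 and MT-ND3 was called higher, with a log2 change of 1.21. In that fit 1731 of all 23542 genes were called higher. Over the 12 groups at once all 15 genes were called, where 87.1% of all genes were, so a call here says little about the members.

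**Figure D2:**
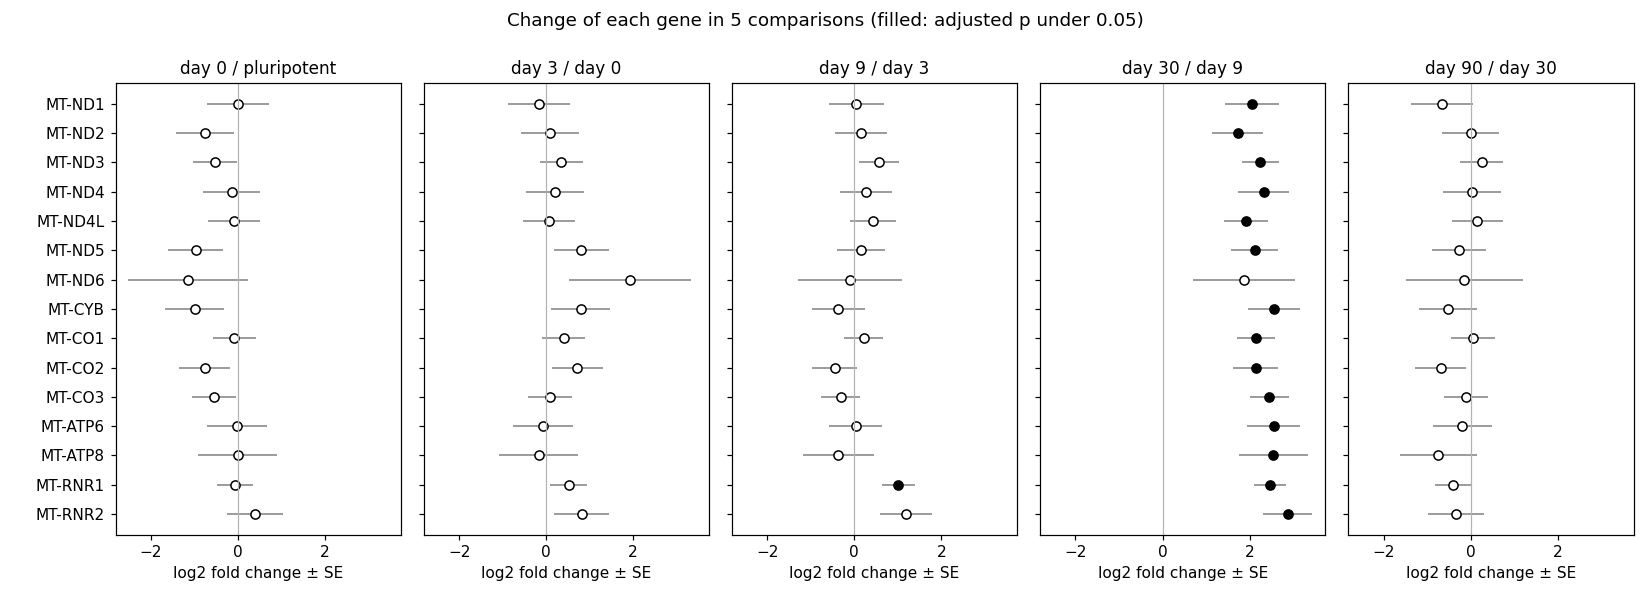
Points give the log2 fold change (x) of each of the 15 tested genes (y) in 5 comparisons, with bars of 1 SE, and filled points passed the adjusted p. Day 30 against day 9 has 14 filled points, all but MT-ND6, and day 9 against day 3 has MT-RNR1.

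**Figure D3:**
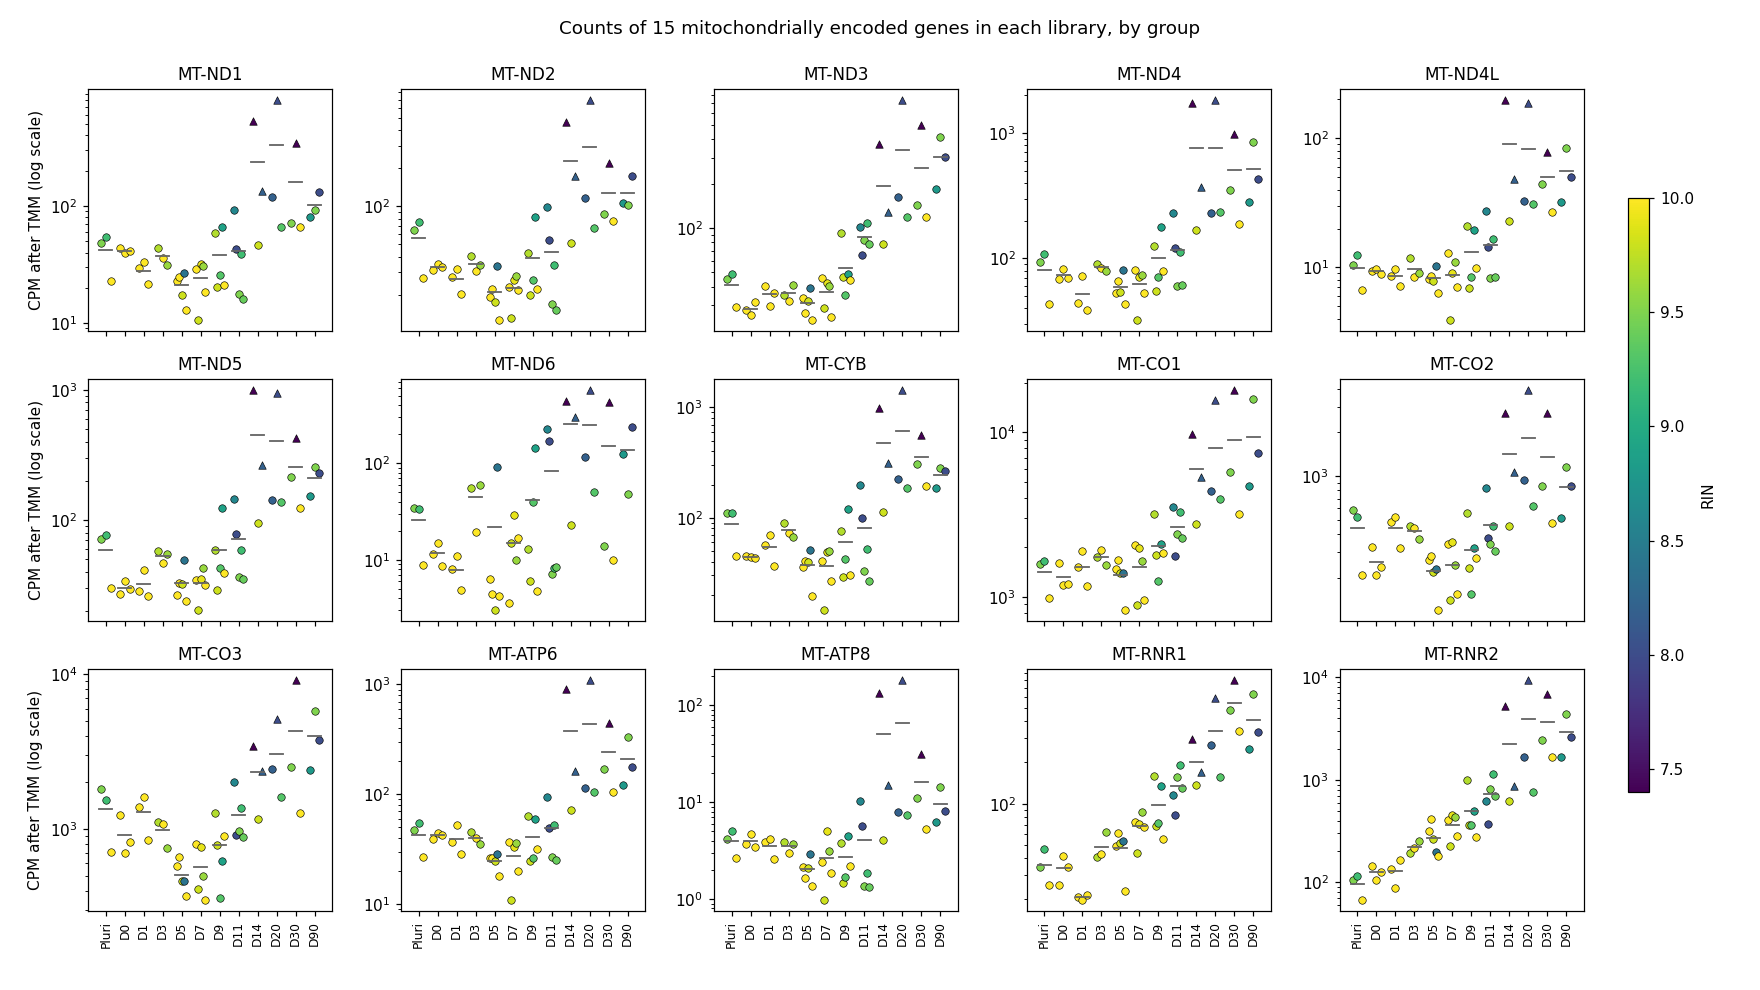
Each panel shows 1 gene, with CPM after TMM scaling on a log axis (y) in each library by group (x). Points are coloured by RIN, grey lines are group means, and triangles mark the 4 libraries under 15000000 counts. At days 14, 20 and 30 the highest MT-ND6 and MT-CO1 library is a triangle.

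MT-ND6 and MT-CO1 were followed in all groups. At day 1, MT-ND6 was at 7.98, 10.96 and 4.83 CPM. At day 5 it was at 6.39, 4.43, 3.04, 91.2 and 4.24 CPM, and at day 7 at 3.54, 14.99, 28.9, 9.98 and 16.7 CPM. Day 5 replicate 4, with a RIN of 8.4, lies far above the other day 5 wells, which had a RIN of 9.8 or 10.0. At day 11 MT-ND6 was at 229, 169, 7.15, 8.28 and 8.36 CPM, and at day 14 at 441, 22.8 and 305 CPM. The 2 high day 11 wells had a RIN of 8.6 and 8.0, and the other 3 had a RIN of 9.2 to 9.5. At day 20 it was at 118, 575 and 50.3 CPM, and at day 90 at 125, 48.4 and 238 CPM. The day 90 well with the lowest level had the highest RIN of its group, 9.5. At day 7, by contrast, the well of lowest RIN (replicate 3, 9.6) held 9.98 CPM, below wells with a RIN of 9.9 and 10.0. Of the 10 groups with a single lowest RIN, that well was the highest in MT-ND6 in 7, the exceptions being pluripotent cells and days 7 and 11. The same tally was 8 for MT-ND2, 7 for MT-ND1, MT-ND5 and MT-CYB, 4 for MT-CO1 and 3 for MT-CO2 and MT-CO3.

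MT-CO1 had a narrower spread. It was at 1585, 1660.2 and 983 CPM in pluripotent wells and 1608, 1177 and 1197 CPM at day 0. At days 1 and 3 it was at 1510.3, 1908 and 1160.3 CPM and 1755, 1938 and 1568 CPM. Across these first 4 groups it stayed between 983 and 1938 CPM. At day 5 it was at 1479.7, 1672, 1392, 1392 and 834 CPM, at day 7 at 2059, 896, 1981, 1649.7 and 958 CPM, and at day 11 at 3527, 1771, 2398, 3277 and 2293 CPM. Day 5 replicate 4, high for MT-ND6, lies inside the other wells for MT-CO1. At day 14 it was at 9707, 2777 and 5367 CPM, at day 20 at 4403, 15785 and 3934 CPM, and at day 90 at 4692, 15856 and 7532 CPM. Every day 14 to 90 well lies above every well of the first 6 groups.

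The ribosomal RNAs were low in the early groups and high in the late ones, with a median of MT-RNR1 of 34.6 CPM in pluripotent wells, 71.0 CPM at day 7 and 486 CPM at day 30. In the groups not yet given, MT-RNR1 was at 34.6, 46.7 and 25.4 CPM in pluripotent wells, 25.6, 41.8 and 34.6 CPM at day 0, 20.7, 19.9 and 21.6 CPM at day 1 and 49.2, 61.1, 51.8, 53.2 and 23.1 CPM at day 5. At day 7 it was at 73.3, 43.3, 71.04, 87.5 and 67.2 CPM, at day 11 at 116, 83.3, 156, 192 and 129 CPM and at day 14 at 297, 136 and 171 CPM. The 3 day 1 wells are the lowest of all 44, and all day 14 wells lie above all wells of the groups up to day 7. It was at 270.3, 587 and 157 CPM at day 20 and 252, 629 and 335 CPM at day 90. MT-RNR2 was at 106, 115 and 67.5 CPM in pluripotent wells, 145, 106 and 126 CPM at day 0, 134, 88.4 and 164 CPM at day 1 and 314, 413, 262, 197 and 182 CPM at day 5. Its day 5 wells all lie above its wells of the first 3 groups. At day 7 MT-RNR2 was at 404, 226, 456, 437 and 286 CPM, at day 11 at 626, 372, 811, 1149 and 697 CPM, at day 14 at 5252, 626 and 867 CPM, at day 20 at 1663, 9417 and 757 CPM and at day 90 at 1685, 4414 and 2624 CPM. Whether and how ribosomal RNA was removed from these total RNA libraries is not given in the sources used here, so their level is not compared with that of the messenger RNAs beyond the ratio between groups.

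In the 15 libraries with a RIN of 10.0 MT-ND6 was between 3.54 and 19.3 CPM, with a median of 8.597, and in the 9 libraries with a RIN of 8.6 or less between 91.2 and 575 CPM, with a median of 238. These sets do not overlap, and 1.63% of all 22955 genes tested were also without overlap, 1.45% higher and 0.179% lower at the low RIN. The 20 libraries in between held 3.04 to 145 CPM. For each of the other 14 tested genes the sets overlap, and MT-CO1 had 834 to 3192 CPM in the first (median 1510) and 1392 to 18076 CPM in the second (median 5367). Most libraries with a RIN of 10.0 are of early days, so day and RIN cannot be told apart in this contrast of sets, and the bounds were chosen after seeing the data.

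Within groups, a fit with RIN beside the group means found 13 of 15 genes lower at higher RIN, where 27.8% of all genes were called, 13.8% higher and 14% lower. The genes not called were MT-RNR1 and MT-RNR2. MT-ND6 had a log2 change of -2.49 ± 0.23 per unit of RIN (SE, adjusted p = 6.4e-09, edgeR's quasi-likelihood test). Only 2 of 22955 genes had a smaller p, and 524 had a lower slope. The next lowest member was MT-ATP8 at -1.26 ± 0.26, and MT-ND1 had -1.08 ± 0.18 and MT-ND2 -1.06 ± 0.16. MT-CO1 had -0.45 ± 0.16 and MT-CO3 -0.47 ± 0.16. RIN moved with depth, with a correlation of 0.631 between RIN and log10 total counts within groups over 44 libraries. With log10 total counts as a further term, 2 of 15 genes were called, where 2530 of all 22955 genes were. They were MT-ND6 at -2.29 ± 0.29 (adjusted p = 2.4e-05) and MT-ND2 at -0.57 ± 0.15 (adjusted p = 0.0125), and MT-CO1 turned to 0.03 ± 0.16. Without the 4 libraries under 15000000 counts, 5 of 15 were called, where 3185 of all 23542 genes were. They were MT-ND6 at -2.83 ± 0.32, MT-ND2, MT-CYB, MT-ND1 and MT-ND5.

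The MT-ND6 ratio, the log2 of MT-ND6 counts over those of the other 12 messenger RNA genes, is free of library scaling. Over deviations from group means in 44 libraries, its Pearson's r with RIN was -0.77 and Spearman's rho -0.81, each with a permutation p = 1e-05, the smallest that 100000 permutations can give, adjusted to 9e-05 over 9 relations. Without the 2 libraries whose deviation in RIN from their group mean was farthest from the median deviation (day 30 replicate 10 and day 14 replicate 3) r was -0.78, and without the 4 libraries of low count r was -0.81. In the 5 sequencing lanes, of 8 to 10 libraries each, r ran from -0.52 to -0.91. The ratio also moved with depth (r = -0.37, permutation p = 0.00929, adjusted p = 0.0209). It did not pass without the 2 libraries farthest by depth, day 20 replicate 2 and day 14 replicate 3 (r = -0.38, permutation p = 0.0564, adjusted p = 0.127). With the summed cardiomyocyte marker level r was -0.58 (permutation p = 0.00276, adjusted p = 0.00828). It was -0.44 without the 2 libraries farthest by that level, day 11 replicate 2 and day 90 replicate 4 (permutation p = 0.0247, adjusted p = 0.074). RIN and this marker level had r = 0.47 with each other, so which of them the ratio follows cannot be told apart here.

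The share of counts in the 13 messenger RNA genes had r = -0.59 with RIN (permutation p = 0.0276, adjusted p = 0.0496), but -0.25 without the 2 libraries farthest by RIN and 0.03 without the 4 low-count libraries. It therefore rests on those libraries. Its r with log10 total counts was -0.89 (permutation p = 0.00031, adjusted p = 0.00139) and -0.81 without the 2 libraries farthest by depth. Without the 4 low-count libraries it was -0.51 (permutation adjusted p = 0.109). Total counts are also the denominator of this share, so a negative r with depth can be partly built in. The ribosomal RNA ratio had r = 0.09 with RIN (permutation p = 0.637, adjusted p = 0.716), and its r in lanes 1 to 5 was 0.601, -0.336, -0.447, 0.696 and 0.518. The other single-value tests between groups all had an adjusted p of at least 0.179, and the MT-ND6 ratio did not pass in any of the 5 comparisons.

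**Figure D4:**
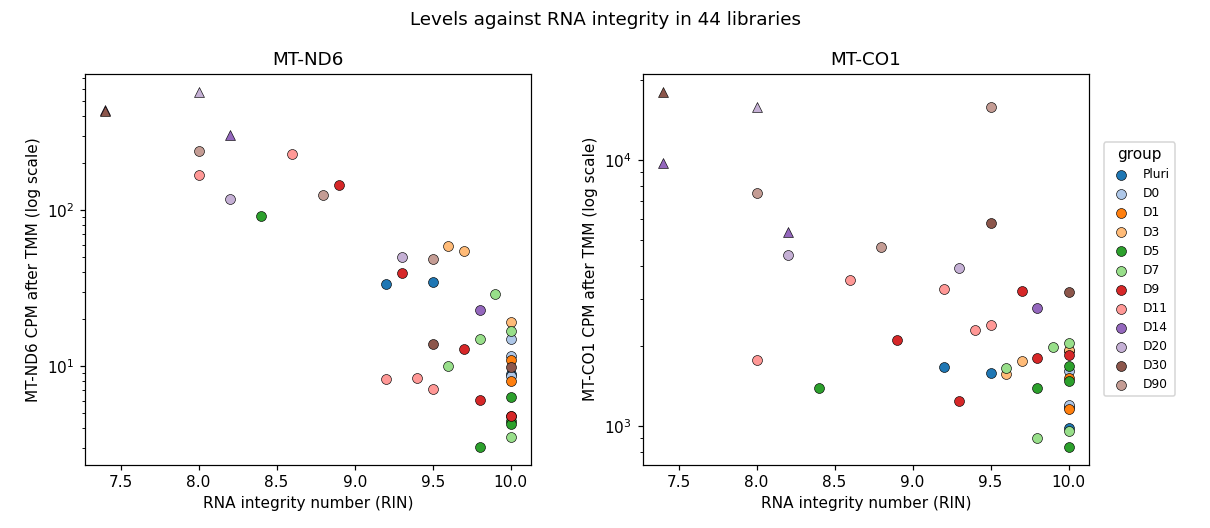
MT-ND6 (left) and MT-CO1 (right) CPM on log axes (y) are plotted against RIN (x) in 44 libraries, coloured by group, with triangles for the 4 libraries under 15000000 counts. The 9 libraries at a RIN of 8.6 or less lie above every library at a RIN of 10.0 for MT-ND6, and the same sets overlap for MT-CO1.

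**Figure D5:**
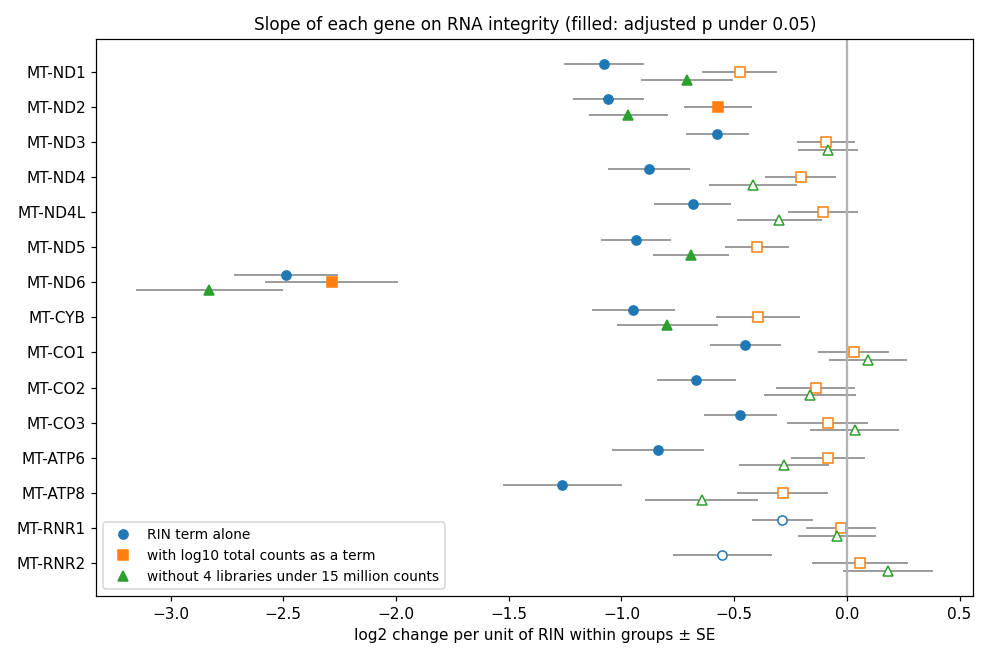
Points give the log2 change per unit of RIN (x) of each tested gene (y) with 1 SE, for the RIN term alone, with log10 total counts added and without 4 libraries, and filled points passed the adjusted p. MT-ND6 stays near -2.29 to -2.83, while most other genes move towards 0.

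How the members moved together is described by correlations of log2 CPM deviations from group means over 44 libraries, which share library, depth and RIN. Among the 12 messenger RNA genes without MT-ND6, the 66 pairs had r between 0.626 and 0.985 with a median of 0.896, the highest for MT-ATP6 with MT-ND4L. MT-ND6 correlated less, with r of 0.368 (MT-CO1) to 0.799 (MT-ND2) with these 12, and 0.261 with the ribosomal RNA MT-RNR2. Without the 4 low-count libraries the 66 pairs had a median of 0.793, and MT-ND6 had -0.0455 with MT-CO1, 0.782 with MT-ND2 and -0.206 with MT-RNR2.

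Nuclear genes that serve mitochondrial transcription, RNA processing, DNA replication and the respiratory complexes were given from lists of 15, 18, 9 and 19 genes, all of which were tested. From pluripotent to day 0 none of these genes rose, where 3.45% of all genes did. Of the transcription list 1 fell, of RNA processing 5, of replication 2 and of the partners 1 (NDUFS1), where 2.43% of all genes fell. TFAM, which packages mitochondrial DNA and starts its transcription, fell by 0.63 on the log2 scale (SE 0.16, edgeR's quasi-likelihood test, adjusted p = 0.0161). RNASEH1 and SSBP1 of the replication list fell by 0.68 each, and TRMT10C and FASTKD3 of the RNA processing list by 0.78 and 0.75. From day 0 to day 3, 10 of 19 partners fell and none rose, where 12% of all genes fell, with ATP5MC1, a complex V subunit, at -1.31 and COX6A2, a muscle form of complex IV, from 0.326 to 0.0257 CPM on average, at most 1 count a library at day 3. Of the 15 genes of the transcription list 2 rose, MTERF2 and ESRRG, where 13.2% of all genes rose, and 2 fell, with PPARGC1A, a coactivator of mitochondrial biogenesis, at -2.05 and PPARGC1B at -1.42. Of the 18 RNA processing genes 2 fell and none rose, where 12% of all genes fell. These were SLIRP, which stabilises mitochondrial RNA, by 1.18 and REXO2 by 0.67. Of the 9 replication genes 2 fell and none rose, RNASEH1 and SSBP1 again, by 0.75 and 0.43.

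From day 3 to day 9, 12 of 19 partners rose and none fell, where 17.3% of all genes rose and 18.6% fell, among them COX6A2, at 0.0257 CPM on average before and 10.8 ± 5.12 CPM at day 9 (SD, n = 5), and ATP5MC1 at 1.12. In the transcription list 3 of 15 rose and 5 fell, with PPARGC1A at 5.60 ± 0.51 and ESRRG at 1.78 ± 0.31. Of the RNA processing list 3 of 18 fell, led by SLIRP at -0.545 and LRPPRC at -0.53. Of the replication list 4 of 9 fell, led by DNA2 at -1.78 and TOP1MT at -1.07. From day 9 to day 30, when 14 members rose, 7 of 19 partners rose, where 16.6% of all genes rose and 15.3% fell. Among them were COX7A1 at 3.09 ± 0.80 and COX6C at 0.74 ± 0.18. COX7A1 had few counts, 1 to 21 a library at day 9 and 38 to 82 at day 30. In the transcription list 6 of 15 rose and MTERF4 fell, with PPARGC1A at 1.78 ± 0.35 and ESRRG at 1.51 ± 0.28. In the RNA processing list 6 of 18 rose and none fell, with FASTKD5 at 1.16 and PDE12 at 0.84. Of the replication list 2 of 9 fell and none rose, TOP1MT, a mitochondrial topoisomerase, by 1.95 and TOP3A by 0.94. From day 30 to day 90, 6 of 19 partners rose, led by COX6A2 at 1.75 and NDUFB8 at 0.86, where 4.03% of all genes rose and 4.49% fell. None of the transcription list changed. In the RNA processing list 3 of 18 fell and none rose, led by PDE12 at -0.83 and ELAC2 at -0.58. Of the replication list 1 of 9 fell and none rose, TWNK, the mitochondrial helicase, by 1.17. The median over the partners was -0.51, 0.58, 0.43 and 0.45 in the comparisons from day 3 against day 0 to day 90 against day 30, beside 0.02, 0.02, 0.07 and -0.07 over all genes.

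With RIN, these nuclear lists had mostly positive slopes, in the fit over all 44 libraries without depth as a term. RIN moved with depth (r = 0.631 within groups). With log10 total counts as a further term, the genes called for RIN went from 6386 to 2530 of 22955. The nuclear lists were not examined in that fit or without the 4 low-count libraries. Of the 19 partners 14 were higher at higher RIN and none lower, where 13.8% of all genes were higher and 14% lower, of the replication list 5 of 9 and of the RNA processing list 4 of 18 were higher, with none lower. Of the 15 genes of the transcription list 2 were higher and 1 lower, near or under the share of all genes. POLRMT, the mitochondrial RNA polymerase, had 0.43 ± 0.05 per unit of RIN and POLG, the mitochondrial DNA polymerase, 0.36 ± 0.04. The median over the partners was 0.18, and over all genes 0.01.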

How the data were processed

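RNA from 44 wells was sequenced as stranded total RNA libraries with 150 bp paired reads, per the labels' protocols. The authors deposited estimated counts and TPM per gene, and a table with the RIN score, sequencing lane and sequencing batch of each sample. All libraries are of 1 sequencing batch, so only the lane was used as a factor. The submitters' processing notes name cutadapt, STAR 2.5.2b, RSEM 1.2.31 and hg38, without their roles. The annotation and the use of strand are not given in the sources used here.

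Deposited estimated counts (93.8% of them whole) were rounded. The rule for the members used no measured value, but members and lists were chosen with earlier results of these data known. Genes passed edgeR's filterByExpr, were scaled by TMM, and were fitted with 12 group means over 44 libraries by edgeR's quasi-likelihood test (edgeR 4.0.16, R 4.3.3), with Benjamini-Hochberg adjustment over 22955 genes and calls at an adjusted p under 0.05. CPM values are counts scaled to 1000000 per library after TMM. DESeq2 1.42.0 and limma 3.58.1 on log2(TPM + 1) were alternatives, as were lane, RIN, a replicate block, stricter and no filters, and leaving out each well. The fit on RIN and the removal of the 4 libraries under 15000000 counts were added after seeing the data. Single values were compared by two-sided exact permutation tests and relations by permutation within groups (scipy 1.17.1). The fit was tested on simulated data. All 37 members were accounted for. Per-library values were given for MT-ND6, MT-CO1, MT-RNR1, MT-RNR2 and, per comparison, the messenger RNA with the highest and lowest change, and lists were given as counts with the 2 called genes of largest change as examples. All sample columns were matched to labels. The series text gives triplicate wells at day 11, where 5 are labelled.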

Additional observations from a re-analysis of the deposited data

Results flagged for a closer look

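Within groups of 5 wells, 7 of 76 checks found a library whose gap to the others exceeded Dixon's 95% critical value, and chance alone gives about 1 in 20. Day 5 replicate 4 stood apart in 3 of them. Its RIN was 8.4 against 9.8 to 10.0 in the other wells. Its MT-ND6 level was 91.2 CPM (91.17) against 3.04 to 6.39 CPM, and its log2 MT-ND6 ratio was -4.72 against -9.56 to -8.45. Day 9 replicate 3 held 145 CPM (144.8) of MT-ND6 against 4.78 to 39.4 CPM, with a RIN of 8.9. Day 9 replicate 1 held 91.9 CPM (91.86) of MT-ND3 against 35.2 to 48.9 CPM. Day 11 replicate 1 held 826 CPM (826.2) of MT-CO2 against 307 to 456 CPM, with a RIN of 8.6. In day 5 replicate 5 the 13 messenger RNA genes held 0.165% of counts (0.1647%) against 0.248% to 0.280%.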

How the results depend on the processing

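Of the alternatives to the results that answer a comparison, other than leaving out single wells, 138 were kept, 17 moved, 5 no longer passed and 2 reversed. Kept means the same direction and side of the threshold. For a count of members called it also covers a modest change of the count. An example is the fall from 14 to 11 at day 30 (against day 9) by limma on log2(TPM + 1). Fits of the compared groups alone called 4 members at day 0 (against pluripotent), 8 at day 3 (against day 0) and 2 at day 9 (against day 3). Of all genes they called 8655 of 17557, 10930 of 17912 and 9682 of 18310, and the cause was not tested. For day 9 against day 3, limma on log2(TPM + 1) and on log2(TPM + 0.1) called 0 each, where 6505 and 6598 of all 13664 genes were called. For day 90 against day 30 the latter called 1, where 4892 of all 13664 genes were called. Without the 4 libraries under 15000000 counts (chosen after seeing the data) 2 were called at day 9 (against day 3), 1 at day 90 (against day 30) and 5 for RIN. Of all 23542 genes 9555, 4171 and 3185 were called in these 3 results. The slope on RIN was then 0.0932 for MT-CO1 and 0.0353 for MT-CO3. With log10 total counts as a term 2 were called for RIN, where 2530 of all 22955 genes were, and the slope of MT-CO1 was 0.0296. Without those 4 libraries, the messenger RNA share at day 90 minus day 30 was 0.543 percentage points. Its r was 0.0323 with RIN, -0.51 with depth and 0.26 with the cardiomyocyte level, r of the MT-ND6 ratio with depth was -0.34, and r of the ribosomal RNA ratio with depth was 0.48 (permutation adjusted p = 0.0468). The 2 libraries farthest from the median deviation differ between RIN, depth and the cardiomyocyte level. Without the 2 for the variable named, r was -0.25 for the share with RIN and -0.38 for the MT-ND6 ratio with depth. It was -0.44 for the MT-ND6 ratio with the cardiomyocyte level and 0.25 for the ribosomal RNA ratio with depth. Within single lanes the share had r = 0.322 with RIN (lane 1) and 0.564 with the cardiomyocyte level (lane 5), and the ribosomal RNA ratio had -0.336 and -0.447 with RIN (lanes 2 and 3) and 0.631, 0.755 and 0.432 with depth (lanes 1, 4 and 5). Over nuclear protein-coding counts the share at day 9 minus day 3 was 0.0285. Leaving out 1 well at a time gave 0 to 1 member called at day 9 (against day 3) and 9 to 15 at day 30 (against day 9). The share difference ran from -0.0546 to 0.021 points at day 9 minus day 3, and from -1.05 to 0.543 points at day 90 minus day 30, the highest without day 30 replicate 10.

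Replicate numbers did not pair the wells, since deviations of same-numbered wells had r from -0.176 to 0.161. With the replicate block 0 members were called for day 9 against day 3, and same-numbered pairs gave 0.00247 points for the share and 0.086 for the log2 MT-ND6 ratio. Day 90 and day 30 share no number, so their single values have no such pairs, and the replicate block called 0 members there.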
